A study of Mus musculus with 13 samples.

Results

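The 9 neuropeptide genes Sst, Npy, Vip, Cck, Penk, Pdyn, Tac1, Crh and Cort were followed across neuron types and feeding groups of the mouse hippocampus. They were chosen by gene symbol, and all 9 were among the 32285 genes of the count tables. Single-nucleus RNA sequencing had been done on whole frozen hippocampus of female mice of the C3B6F1 hybrid strain (written C3HB6F1 in some labels), with 13 libraries. The groups were mice fed ad libitum at 5 months of age (young, n = 3), mice fed ad libitum at 24 months (old, n = 3, numbered 1, 2 and 4), mice of 24 months whose diet was restricted from 20 months (acute restriction, n = 3) and mice of 24 months restricted from 5 months (long-term restriction, n = 4). No group carried a transgene or a deletion in the labels. The labels do not say whether each library held the tissue of 1 mouse. Libraries are called mice here, and all p-values measure the spread between these libraries. Classes in which some libraries had under 20 nuclei were fitted with fewer than all 13.

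Neuropeptides are cut from larger precursor proteins, stored in dense core vesicles and released beside a fast transmitter, usually under strong firing. In the hippocampus they are best known from inhibitory interneurons, whose classes differ in the peptides they carry and in the part of the pyramidal cell that they contact. Excitatory cells use some of them as well: cholecystokinin transcripts are known from pyramidal cells, and the opioid precursors from the granule cells of the dentate gyrus and their mossy fibres.

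The members lie on 7 chromosomes and are short genes (GRCm38, GENCODE vM21). Sst (somatostatin) spans 1.39 kb at chr16:23889573-23890958 on the minus strand, and its relative Cort (cortistatin, which binds the same receptors) spans 1.73 kb at chr4:149125034-149126763, minus. Npy (neuropeptide Y) spans 6.8 kb at chr6:49822710-49829507, plus. Vip (vasoactive intestinal peptide) spans 8.4 kb at chr10:5639218-5647617, plus, and Cck (cholecystokinin) 5.87 kb at chr9:121489824-121495694, minus. The opioid precursors Penk (enkephalins) and Pdyn (dynorphins) span 5.29 kb at chr4:4133531-4138819, minus, and 13.28 kb at chr2:129686565-129699844, minus. Tac1 (the precursor of substance P) spans 10.96 kb at chr6:7554879-7565834, plus, and Crh (corticotropin-releasing hormone) 2.0 kb at chr3:19693401-19695396, minus. Each has 2 to 9 exon blocks. Penk overlaps A830012C17Rik on the opposite strand. The use of strand in counting is not given in the sources used here, so the UMIs (unique molecular identifiers, counts of transcript molecules) of that pair cannot be told apart with certainty.

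Promoters of 7 of the 9 members were found in the RefSeq table (GRCm38.p6, 250 bases before to 50 bases after each start); those of Penk and Crh were not used here. They are shown because several peptide genes are textbook targets of the cAMP response element, which reads TGACGTCA; no link between these letters and the levels was tested. The full element stands in the promoter of Sst alone among the 7, and in 1.79% of all 32851 promoter windows (588). Its core TGACG, on either strand (CGTCA on the other), stands in the promoters of 5 of the 7 members and in 20.8% of all windows; the full element holds the core. No match was found in the 1 window of Npy and the 2 windows of Pdyn. A match is a description of letters and not of binding. The 30 bases around each match are given 5′ to 3′ on the gene's own strand, with the match in capitals. The first base of the match lies 48 bases before the RefSeq start in Sst, 79 in Vip, 47 in Cck, 18 in Cort, and 197 and 43 in Tac1. The RefSeq starts of Sst and Tac1 lie inside the GENCODE spans given above, so the Sst match and the second Tac1 match come after the GENCODE start and within those spans.
Sst, chr16:23890874-23890903, minus: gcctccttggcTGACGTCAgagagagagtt
Vip, chr10:5639126-5639155, plus: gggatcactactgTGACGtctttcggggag
Cck, chr9:121495725-121495754, minus: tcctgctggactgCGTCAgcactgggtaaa
Cort, chr4:149126765-149126794, minus: gctccggcttgtgCGTCAccgcgtgagtgt
Tac1, chr6:7554851-7554880, plus: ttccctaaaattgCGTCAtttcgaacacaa
Tac1, chr6:7555005-7555034, plus: ggctctacaggctCGTCAcgcctgagataa

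The tables held 105759 barcodes, 3524 to 12368 per library, with 742437104 UMIs in all, 38546292 to 80538090 per library. After filtering, 98041 nuclei remained, with a median of 3688 to 11195 UMIs per nucleus in a library. Pairs of libraries shared 4 to 40 barcodes, at most 0.471% of the smaller library. Nuclei were clustered and named without the 9 members, from markers of each type. Of the inhibitory-like nuclei (4823, 4.92% of all), subclusters were named Grin3a-Elfn1 interneuron-like (687 nuclei, the type known for somatostatin), Pvalb interneuron-like (642), Calb2 interneuron-like (830, the type known for Vip), Lamp5 interneuron-like (393, the neurogliaform type) and Cnr1 interneuron-like (282). Excitatory nuclei included 40455 granule-like, 5943 CA1-like, 2544 CA3-like and 1312 subicular-like nuclei, and further clusters were kept unnamed and are given by number. The 4 libraries numbered 1, with 1 in each group, stood apart from the others, so the counts of calls with age are also given with that difference modelled and without those libraries.

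Inhibitory-like nuclei held most UMIs of Vip (77.0% of 3977), Crh (72.1% of 258), Npy (65.3% of 3221), Sst (63.8% of 7238) and Tac1 (50.8% of 1133), although they made up 4.92% of nuclei. Granule-like nuclei, 41.3% of all nuclei, held 81.2% of the 1226 Pdyn UMIs and, near their share of nuclei, 46.0% of the 2233 Penk UMIs. Cck was spread most widely: of its 32635 UMIs, 28.0% were in granule-like, 14.7% in CA1-like and 7.30% in inhibitory-like nuclei. Cort UMIs (836) were split between inhibitory-like (38.3%) and granule-like nuclei (27.0%, below their share of nuclei). Cck was seen in 22.8% of all nuclei, and every other member in at most 3.65%. The clusters came from other genes of the same nuclei, so these levels are a description with no test.

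**Figure D1:**
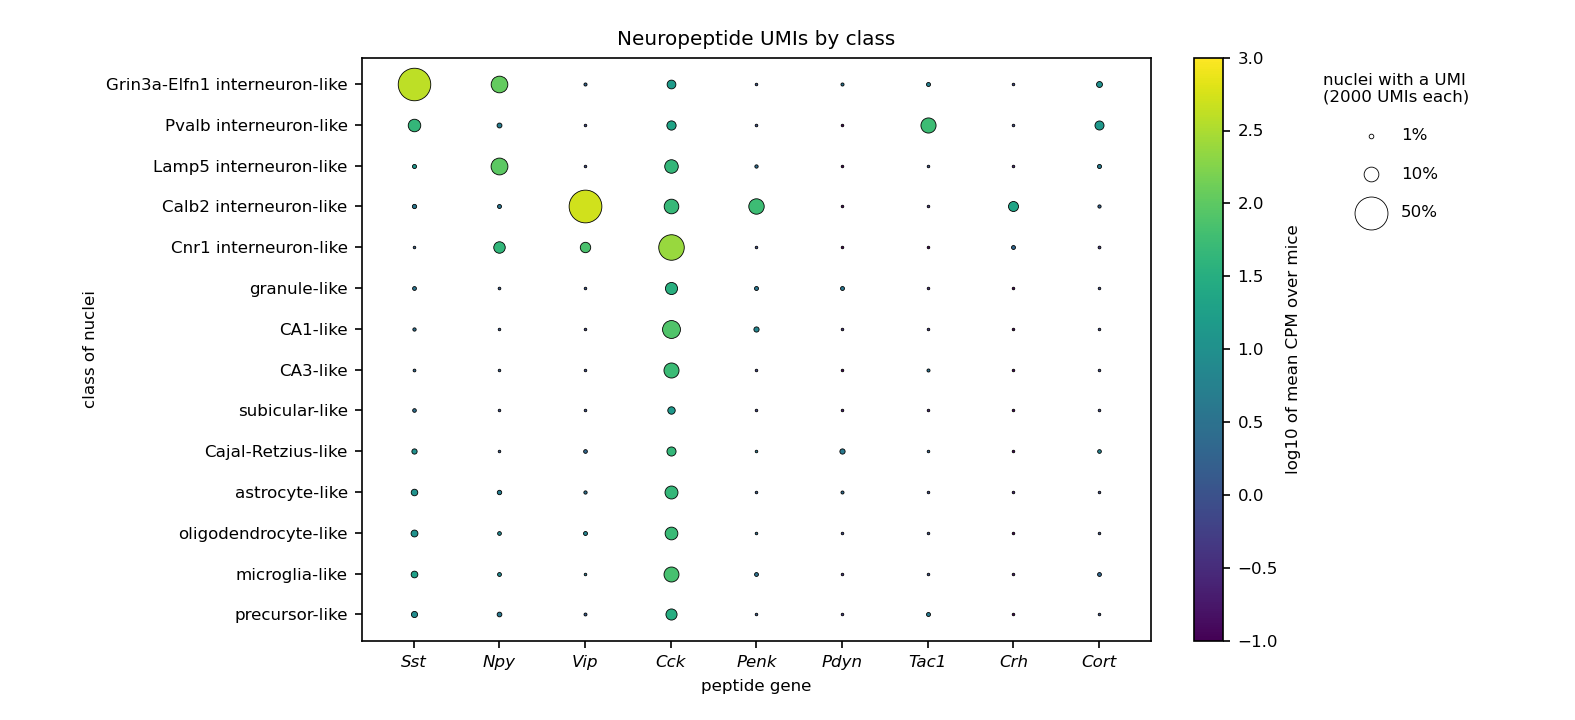
Levels of the 9 peptide genes (columns) in 14 classes of nuclei (rows); colour gives the log10 of the mean CPM over mice, and circle area the percent of nuclei with a UMI after thinning each nucleus to 2000 UMIs. The largest circles are those of Sst in Grin3a-Elfn1 interneuron-like nuclei (48.7%) and Vip in Calb2 interneuron-like nuclei (49.4%), and Cck is the only gene with sizeable circles in excitatory and glial rows.

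Levels are given as CPM, the UMIs of a gene relative to all UMIs of its class in a mouse on the usual scaled-count basis, as mean ± SD over mice with at least 20 nuclei. They are compared between classes within a gene and not between genes, and an order of classes covers the named classes unless a cluster is given by number. Free RNA from broken cells puts some UMIs in every droplet, so glia serve as background. In oligodendrocyte-like nuclei (median 1884 UMIs per nucleus) Sst stood at 10.8 ± 4.69 CPM and Cck at 51.3 ± 16.5 CPM (n = 13), and the remaining members at 0.0250 to 7.28 CPM.

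Among the named classes Sst, the peptide of dendrite-targeting interneurons, was highest in Grin3a-Elfn1 interneuron-like nuclei, at 406 ± 242 CPM (n = 12, range 139 to 1008), with a UMI in 82.0% of nuclei (median 8001 UMIs). Pvalb interneuron-like nuclei followed at 44.7 ± 31.4 CPM (n = 10, range 7.48 to 113), which did not overlap the former range. Lamp5 interneuron-like nuclei stood at 12.1 ± 17.6 CPM (n = 11), where young mouse 1 held 63.3 CPM from 21 UMIs in 2.27% of its 44 nuclei and the other mice 0 to 16.6. An unnamed subcluster, number 5, carried 363 pooled CPM of Sst in 312 nuclei. Another, number 8, carried 172 to 315 pooled CPM by group. The named class therefore does not hold all Sst nuclei. Among the named classes Cort was highest in Pvalb interneuron-like (13.5 ± 6.76 CPM, n = 10) and Grin3a-Elfn1 interneuron-like nuclei (9.71 ± 7.67, n = 12), which did not differ beyond their spread; the unnamed subclusters 17 and 5 held 19.8 and 18.4 pooled CPM of it.

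Npy, which dampens transmitter release, was shared by several classes. It stood at 110 ± 87.4 CPM in Grin3a-Elfn1 interneuron-like nuclei (n = 12), 97.6 ± 82.8 in Lamp5 interneuron-like nuclei (n = 11) and 43.5 ± 32.99 in Cnr1 interneuron-like nuclei (n = 8), and these ranges overlapped. The mean of the Cnr1 class joined 2 separate sets: the libraries numbered 1 held 61.1 to 92.2 CPM and the others 11.4 to 19.1. Within the first class it was uneven: subcluster 14 (191 nuclei) held 382 pooled CPM with a UMI in 67.0% of nuclei, while subcluster 9 (264 nuclei) held 31.2 CPM and a UMI in 12.1%. Pvalb interneuron-like nuclei, at 4.65 ± 5.90 CPM, were near the glial level of 7.28 ± 8.73.

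Vip, Penk and Crh shared their highest named class. In Calb2 interneuron-like nuclei, the class that largely inhibits other interneurons, Vip stood at 515 ± 277 CPM (n = 13, range 266 to 1094) with a UMI in 67.0% of nuclei (median 5757 UMIs, against 0.879% of oligodendrocyte-like nuclei). Penk, the enkephalin precursor, stood there at 54.7 ± 43.1 CPM (range 3.17 to 165) and Crh, known as a stress peptide, at 21.4 ± 20.0 (range 0 to 68.0). Vip was uneven within the class, with 692 pooled CPM in subcluster 1 (631 nuclei) and 63.2 in subcluster 13 (199 nuclei), whereas Penk was alike in both, at 63.5 and 60.8. Outside the interneurons Penk was above glia in CA1-like nuclei (6.65 ± 4.73 CPM, 0.0649 UMIs per nucleus, against 0.00350 in oligodendrocyte-like nuclei).

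Among the named classes Tac1 was highest in Pvalb interneuron-like nuclei, at 55.3 ± 31.5 CPM (n = 10, range 15.0 to 114), followed by 5.07 ± 4.88 in Grin3a-Elfn1 interneuron-like nuclei (n = 12, range 0 to 15.0). The unnamed cluster 32 (178 nuclei) stood above both, at 82.7 pooled CPM, and the unnamed subclusters 17 and 8 lay between them, at 33.1 and 28.5. Among the named classes Cck was highest in Cnr1 interneuron-like nuclei, the type known for cholecystokinin basket cells, at 243 ± 117 CPM (n = 8, range 88.3 to 488) and 234 pooled CPM, and the unnamed subcluster 15 (178 nuclei) held 239 pooled CPM. The unnamed excitatory clusters 6 and 14 followed at 126 ± 84.2 (n = 12) and 122 ± 71.6 (n = 13). CA1-like (80.2 ± 40.2), CA3-like (54.2 ± 32.5) and granule-like nuclei (33.1 ± 20.0, each n = 13) came next and overlapped one another. In CPM the last 2 lay within the range of the glial classes (30.7 to 66.2), whose nuclei are shallow. Per nucleus, CA3-like nuclei held 0.754 Cck UMIs and granule-like nuclei 0.226, against 0.104 in oligodendrocyte-like and 0.129 in astrocyte-like nuclei. Pdyn, the dynorphin precursor, stood at 3.69 ± 1.22 CPM in granule-like nuclei (n = 13, range 2.35 to 5.79) with a UMI in 2.35% of nuclei, and at 3.21 ± 2.69 in Grin3a-Elfn1 interneuron-like nuclei. Astrocyte-like nuclei, which are shallow (median 2699 UMIs) and made up 7.55% of nuclei, held 4.00% of Pdyn UMIs. No background was subtracted from these low levels.

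Peptides were found together in single nuclei. Of the 4823 inhibitory-like nuclei, 34.4% had a UMI of no member, 40.3% of 1, 20.0% of 2 and 4.73% of 3 members; 24 nuclei had 4 and 4 nuclei had 5. Of the 265 nuclei with Penk, 60.4% had Vip, against 11.04% of nuclei without Penk. Of the 114 nuclei with Crh, 48.2% had Vip, against 12.9% without Crh. Sst and Npy overlapped in the same way: 46.4% of the 699 Npy nuclei had Sst, against 21.2% of the others. Of the 237 nuclei with Cort, 44.3% had Sst and 21.9% had Tac1, against 23.8% and 6.08% of nuclei without Cort. Vip and Sst rarely met: 4.07% of the 663 Vip nuclei had Sst, against 28.1% of nuclei without Vip.

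With each nucleus thinned to 2000 UMIs (70 shallower nuclei left out, 20 of young, 7 of old, 33 of acute and 10 of long-term restriction mice), these pairs kept their direction: Penk with Vip 44.8% against 8.61%, Crh with Vip 52.9% against 8.93%, Npy with Sst 37.3% against 11.2%, and Vip with Sst 1.79% against 13.9%. Within Calb2 interneuron-like nuclei alone, 73.8% of Penk nuclei and 64.6% of nuclei without Penk had Vip, as did 69.9% of Crh nuclei and 66.7% of nuclei without Crh. Within Grin3a-Elfn1 interneuron-like nuclei, 90.2% of Npy nuclei and 78.9% of the others had Sst, while the Npy nuclei were also deeper (median 9432.5 against 7309 UMIs). Within Pvalb interneuron-like nuclei 47.5% of the 61 Cort nuclei and 27.0% of the others had Tac1. Before thinning, Sst was also seen in 18 of the 24 inhibitory-like nuclei with Pdyn. After thinning only 5 nuclei kept Pdyn, and 40.0% of these had Sst, against 12.7% of nuclei without Pdyn. The cells are not replicates, and no test was made.

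**Figure D2:**
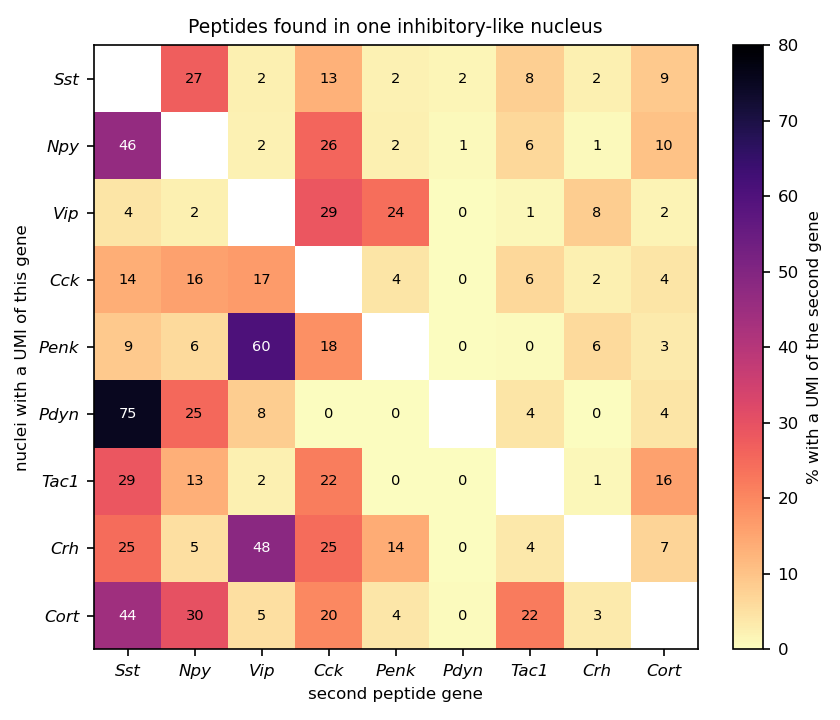
Percent of inhibitory-like nuclei with a UMI of the row's gene that also had a UMI of the column's gene, all nuclei pooled. The highest values are those of Sst among Pdyn nuclei (75.0% of 24 nuclei, and 40.0% of 5 after thinning) and of Vip among Penk nuclei (60.4% of 265, and 44.8% of 105 after thinning).

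The genes most like each member across 16 inhibitory subclusters (Pearson's r of mean log2 CPM over 11093 genes) are given as a description. For Sst they were Ephb6 (r = 0.94), Lgals1 (0.92) and Lypd6b (0.91), and for Vip they included Sobp and Nckap5 (0.95 each). Cck was most like Frem1 (0.90), Nr3c2 (0.89) and Dtnb (0.85), and Tac1 most like Kcnab3 (0.94), Gm26633 (0.94) and Syt2 (0.93). Npy was most like Mrap2 (0.82), Gm26549 (0.77) and Phf1 (0.75), and Pdyn most like Tunar (0.88), Gm40438 (0.87) and Myo5a (0.82). Cort was most like Cwc27 (0.95), Ttll11 (0.91) and Bckdhb (0.90). For Penk they were A830012C17Rik (0.97), which overlaps it, D030055H07Rik (0.93) and A530065N20Rik (0.91), and for Crh they were Penk (0.89), A830012C17Rik (0.86) and Clasp2 (0.85). Subclusters share libraries and depth.

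Levels were lower in old than in young mice for most members and classes, but few differences passed the test in the fit with group only. That fit underlies the values that follow unless another setting is named. More pairs passed with a term for the libraries numbered 1, as given further below. Summed UMIs per mouse and class were fitted with edgeR's quasi-likelihood test in 19 classes, in which 58 of 171 pairs of a member and a class passed the filter on low counts (38 of 135 in the 15 classes that share no nuclei). In the comparison of old with young mice fed ad libitum, 0 of 58 pairs passed an adjusted p of 0.05. Over all genes and these classes 0.298% of gene and class pairs were called, from 0% to 3.44% per class. At an unadjusted p under 0.05 there were 10, and DESeq2 called 1 (1.92% of all pairs), Vip in inhibitory-like nuclei. The log2 fold change was negative in 54 of 58 pairs, with a median of -0.82, while the median over all genes of a class ran from -0.06 to -0.0045. With the 3 old groups averaged against the young, 56 of 58 pairs were negative (36 of 38 in the classes that share no nuclei). The median was -0.86, against -0.07 to -0.01 over all genes of a class and -0.54 to -0.31 over genes that span under 14 kb. Of the 58 pairs 2 were called, where 1.85% of all gene and class pairs were. Vip fell in inhibitory-like nuclei (3.99% of genes called there) and Cck fell in granule-like nuclei (14.2% called), and only the latter is among the 38. Of the 58 pairs 27 had an unadjusted p under 0.05, and DESeq2 called 6 (3.84% of all pairs). The share of all gene and class pairs with an unadjusted p under 0.05 is not given here. The counts of 10 and 27 are therefore no result about the members. Since 14.2% of granule-like genes were called, the Cck call alone does not set the member apart from other genes.

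Vip in inhibitory-like nuclei measured 160, 174 and 73.9 CPM in the 3 young mice, 80.4, 39.2 and 88.5 in the old mice fed ad libitum, 58.6, 35.8 and 36.7 under acute and 59.7, 49.0, 38.7 and 64.0 under long-term restriction. The young mice 1 and 2 lay above every old mouse, and young mouse 3 within their range. The log2 fold change of old against young was -1.20 ± 0.28 (SE, adjusted p = 0.0435). It was called without young mouse 3, old mouse 1 fed ad libitum or long-term restriction mouse 1, and not with any of the other 10 libraries left out (-1.01 without young mouse 1, and an adjusted p of up to 0.194, without young mouse 2), nor without the 4 libraries numbered 1 (-1.19, adjusted p = 0.105). In Calb2 interneuron-like nuclei, where most Vip lies, the 3 young mice held 1081, 1094 and 509 CPM, against 623, 293 and 458 in old mice fed ad libitum, 531, 300 and 282 under acute and 507, 343, 266 and 407 under long-term restriction. The fold there was of like size, -1.12 ± 0.30, with an adjusted p of 0.154. Among libraries numbered 1, and separately among the others, every young mouse was above every old mouse, as was the case for 4.54% of genes of the class.

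Penk and Crh, the other peptides of these nuclei, had folds of -1.09 ± 0.62 (adjusted p = 0.453) and -1.48 ± 0.57 (0.241) in Calb2 interneuron-like nuclei. Penk measured 165, 70.7 and 46.6 CPM in young mice and 83.5, 22.2 and 30.3 in old mice fed ad libitum, 77.1, 24.5 and 38.1 under acute and 94.7, 31.7, 3.17 and 24.2 under long-term restriction. In each group the mouse numbered 1 was the highest. Crh measured 68.0, 20.8 and 42.7 CPM in young mice, 22.6, 9.85 and 10.7 in old mice fed ad libitum, 27.8, 0 and 3.17 under acute and 45.4, 13.2, 9.51 and 4.03 under long-term restriction. Only young mouse 1 lay above every old mouse, and long-term restriction mouse 1 lay above young mice 2 and 3. Without young mouse 1 the fold of Penk was -0.26 and that of Crh -0.90, and without acute restriction mouse 1 that of Crh was -2.36. Over all inhibitory-like nuclei Crh had a fold of -1.54 ± 0.46 (adjusted p = 0.0652), on few UMIs (258 in the series), and of -0.80 without young mouse 1. With each library left out in turn the fold ran from -1.84 to -0.80, and its adjusted p in the edgeR fit from 0.0355 to 0.428.

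Sst in Grin3a-Elfn1 interneuron-like nuclei measured 1008, 497 and 480 CPM in young mice, 516, 235 and 330 in old mice fed ad libitum, 574 and 175 in acute restriction mice 1 and 3 (mouse 2 had 8 nuclei and was left out) and 453, 282, 184 and 139 under long-term restriction. Old mouse 1 fed ad libitum and acute restriction mouse 1 lay above young mice 2 and 3, and the remaining old mice lay below all young mice. The fold was -0.95 ± 0.46 (adjusted p = 0.386), and -0.48 without young mouse 1. In Pvalb interneuron-like nuclei Sst measured 78.9 and 113 CPM in 2 young mice and 7.48 to 58.3 in 8 old mice, which did not overlap, with a fold of -1.59 ± 0.36 (adjusted p = 0.1002), which was called without long-term restriction mouse 3 (-1.49, adjusted p = 0.0261). Tac1 in the same nuclei measured 114 and 89.8 in young and 15.0 to 74.0 in old mice, again with no overlap, and a fold of -1.07 ± 0.40 (adjusted p = 0.295), which was called without acute restriction mouse 1 (-1.56, adjusted p = 0.0280). Young mouse 3 and 2 old mice had under 20 nuclei in this class and are not in these fits.

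Cck in granule-like nuclei measured 87.1, 58.9 and 31.4 CPM in young mice, 42.9, 21.9 and 24.5 in old mice fed ad libitum, 27.2, 21.3 and 23.2 under acute and 34.8, 25.3, 18.5 and 13.8 under long-term restriction. Young mice 1 and 2 lay above every old mouse, and young mouse 3 below the old mice numbered 1 in 2 of the 3 old groups. The fold was -1.06 ± 0.32 (adjusted p = 0.0472), and the call was lost with 10 of the 13 libraries left out in turn. CA3-like nuclei had a like fold, -1.12 ± 0.29 (adjusted p = 0.0986), with 143, 91.5 and 59.2 CPM in young mice and 22.7 to 63.8 in old mice. CA1-like nuclei had a fold of -0.81 ± 0.35 (adjusted p = 0.193), with 177, 129 and 62.3 CPM against 33.5 to 116. Without young mouse 1 the Cck fold was -0.60 in granule-like (adjusted p = 0.205), -0.66 in CA3-like and -0.37 in CA1-like nuclei. In CA3-like and CA1-like nuclei young mouse 3 lay within the range of old mice and young mice 1 and 2 above it. Cnr1 interneuron-like nuclei, the named class highest in Cck, were not among the classes fitted. In mice with at least 20 nuclei, Cck there measured 488, 200 and 183 CPM in young mice. It measured 269 and 88.3 in old mice 1 and 2 fed ad libitum. It was 294 in acute restriction mouse 1, and 191 and 230 in long-term restriction mice 1 and 2. Only young mouse 1 lay above all of these old mice.

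The granule-like class was made of different clusters in the groups: of the young nuclei 5662 were in cluster 3 and 1790 in cluster 0, and of the old nuclei fed ad libitum 317 and 3755. Fitted one cluster at a time, the Cck fold ran from -0.45 in cluster 13 to -1.19 in cluster 7, and cluster 7 alone passed (adjusted p = 0.00579, 8.58% of genes called). These fits were added after seeing the data. Cluster 7 is the one that passed among clusters of the same libraries, so its values are a description and no separate support. In cluster 7 the young mice held 67.7, 42.3 and 37.0 CPM of Cck and the old mice 13.4 to 30.5, with no overlap. That fold was -0.87 (adjusted p = 0.0106) without young mouse 1, and was called with any 1 library left out. Cck in astrocyte-like nuclei, which serve as background here, measured 105, 65.2 and 48.4 CPM in young mice and 15.3 to 51.7 in old mice. The part of free RNA in the Cck difference was not tested.

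Penk in granule-like nuclei gave -0.56 ± 0.34 (adjusted p = 0.240), and 0.11 without young mouse 1, so its direction rested on that library. Its UMIs there were concentrated in cluster 0. In that cluster Penk measured 43.0, 22.6 and 7.71 CPM in young mice, 9.33, 5.20 and 9.52 in old mice fed ad libitum, 11.96, 3.51 and 5.10 under acute and 9.002, 5.15, 5.76 and 6.27 under long-term restriction. Young mice 1 and 2 lay above every old mouse, and young mouse 3 within the old range. The fit of cluster 0 by itself, added after seeing the data, gave -1.71 ± 0.47 (adjusted p = 0.0523, with 7.46% of genes called), and -1.47 with a term for the libraries numbered 1 (adjusted p = 0.00626, 18.3% called). It was -0.81 without young mouse 1 (adjusted p = 0.327) and -1.09 without the libraries numbered 1 (adjusted p = 0.0674), and was called with young mouse 3 left out (-2.18, adjusted p = 0.0212) or acute restriction mouse 1 left out (-1.91, adjusted p = 0.0354) but with none of the other 11 libraries left out. Penk was at 0.00 to 6.24 pooled CPM in the other granule-like clusters of any group.

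Npy went in different directions by class, and neither passed. In Lamp5 interneuron-like nuclei it measured 292 and 164 CPM in young mice 1 and 2, 144, 49.0 and 70.0 in old mice fed ad libitum, 137 and 21.6 in acute restriction mice 1 and 3, and 55.4, 96.5, 38.7 and 5.38 under long-term restriction (-1.66 ± 0.62, adjusted p = 0.332, and -1.07 without young mouse 1). All old mice in the fit lay below both young mice; young mouse 3 had 19 nuclei and 27.3 CPM and was left out. In Grin3a-Elfn1 interneuron-like nuclei it measured 125, 46.8 and 30.02 in young mice, against 262, 78.3 and 64.9 in old mice fed ad libitum, 313 and 81.3 under acute and 86.8, 103, 45.1 and 89.5 under long-term restriction (0.86 ± 0.66, adjusted p = 0.599). The ranges overlapped, and the fold ran from 0.39 without acute restriction mouse 1 to 1.84 without young mouse 1. In that class the direction turned to -0.01 with the median UMIs per nucleus as a covariate, and the Npy-rich subcluster 14 gave 31 of the young nuclei and 72 of the acute restriction nuclei. Cort in inhibitory-like nuclei had a fold of -0.55 ± 0.41 (adjusted p = 0.402), which turned to 0.04 with the gene span trend removed.

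**Figure D3:**
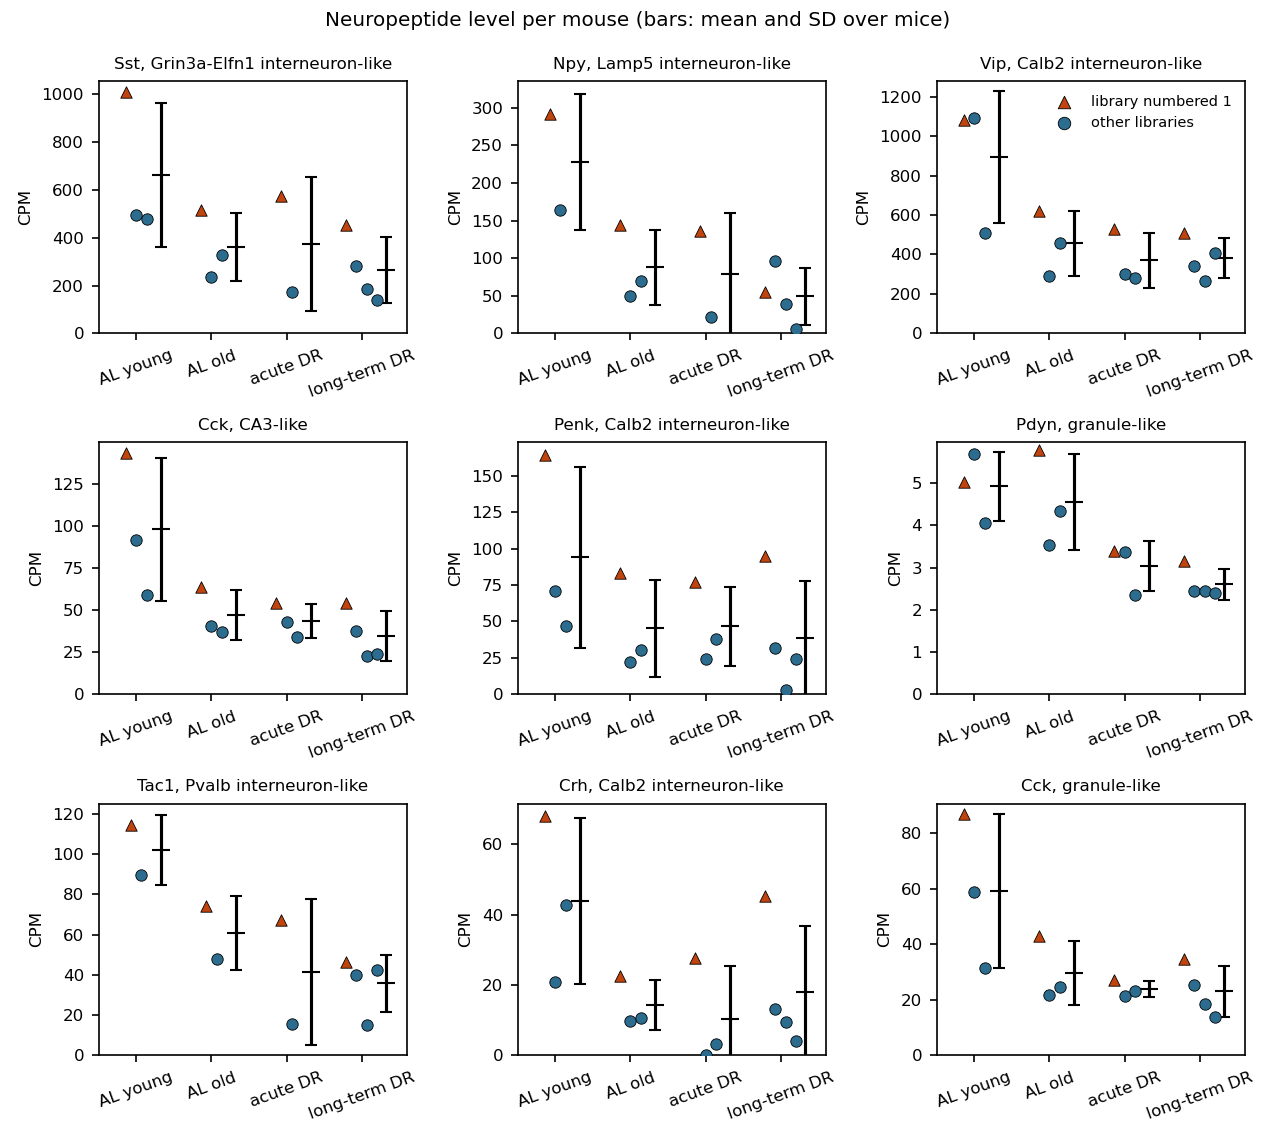
CPM per mouse (vertical axis, linear from 0) of 8 peptide genes in the class named above each panel, with Cck in 2 classes, by group; triangles are libraries numbered 1, circles the others, and bars the mean and SD over the mice with at least 20 nuclei, clipped at 0. Young mice lie highest in most panels and the triangle is the highest point of most groups; for Pdyn the young and old mice fed ad libitum lie above the restricted mice.

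Several measures moved with age beside these levels. Nuclei of old mice were deeper: the median UMIs per nucleus of a class were 1.34 to 1.64 times those of young mice. CPM was lower in old mice in 57 of the 58 pairs, at a median ratio of 0.518, while UMIs of the member per nucleus, not divided by depth, were lower in 48 of 58, at a median ratio of 0.741. Vip in Calb2 interneuron-like nuclei measured 4.28 ± 2.03 UMIs per nucleus in young (n = 3) and 2.75 ± 1.31 in old mice (n = 10), Sst in Grin3a-Elfn1 interneuron-like nuclei 4.45 ± 2.70 and 3.06 ± 1.92 (n = 3 and 9), and Cck in granule-like nuclei 0.344 ± 0.230 and 0.212 ± 0.131. These ranges overlapped.

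Short genes as a whole were lower in old nuclei. Genes that span under 14 kb, as all 9 members do, had a median log2 fold of -0.54 to -0.31 per class. When the trend of level on gene span was removed from each library, an alternative chosen after seeing the data, 0 of 58 pairs were called (0.297% of all pairs): Vip in inhibitory-like nuclei stood at -0.92 (adjusted p = 0.189), Cck in granule-like nuclei at -0.71 (0.149) and Sst in Grin3a-Elfn1 interneuron-like nuclei at -0.17. Age, depth per nucleus and this trend cannot be told apart in these libraries. Leaving out 1 library at a time gave 0 to 3 calls. No call was left without young mouse 1, old mice 2 or 4 fed ad libitum, acute restriction mice 2 or 3, or long-term restriction mice 2 or 4, and 1 call without young mouse 2 or long-term restriction mouse 3.

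The libraries numbered 1 were higher for the members. With a term for them in the fit, 52 of 58 pairs were higher in those libraries and 28 passed, all higher, by 0.66 to 2.18 on the log2 scale (2.42% of all gene and class pairs were called higher, 0.187% to 9.11% per class). Penk in Calb2 interneuron-like nuclei was higher by 1.67, Crh there by 1.68 and Sst in inhibitory-like nuclei by 1.05. With that term the age comparison of all old with young mice called 22 of 58 pairs, all lower, against 8.05% of all gene and class pairs (0% to 33.6% per class). These were Cck in 9 classes, Sst in 4, Crh and Penk in 3 each, Vip in 2 and Tac1 in 1. Some of these classes share nuclei, so the counts of classes are not independent. Crh was tested only in Calb2 interneuron-like nuclei, inhibitory cluster 17 and inhibitory-like nuclei, and the last class holds nuclei of the others. Sst in Grin3a-Elfn1 interneuron-like nuclei was then at -1.01 (adjusted p = 0.00085, 1.99% of genes called) and Vip in Calb2 interneuron-like nuclei at -1.12 (adjusted p = 0.00155, 3.72% called). Cck in CA3-like nuclei was at -1.07 (adjusted p = 0.0021, 3.81% called), Crh in inhibitory-like nuclei at -1.56 (adjusted p = 0.00222, 15.2% called) and Penk in Calb2 interneuron-like nuclei at -1.02 (adjusted p = 0.0111).

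The 9 remaining libraries by themselves gave 9 calls (5.76% of all gene and class pairs, 0% to 24.9% per class): Sst in 4 classes, Cck in 2, and Crh, Vip and Tac1 in 1 each. With the replicate number as a block, 20 of 58 pairs were called (6.91% of all pairs). For old against young mice fed ad libitum alone there were 8 calls with the term (4.07% of all pairs), 9 with the block (3.3%), 0 without the libraries numbered 1 (4.82%) and 0 with the gene span trend removed (0.0411%). Comparing the libraries numbered 1 and the others separately, every young mouse was above every old mouse in both for 15 of 58 pairs. This held for 11 of the 38 pairs in classes that share no nuclei. Every young mouse was below in both for 0. For all genes the former held for 8.39% of gene and class pairs, and for 4.54% to 17.8% of genes in the classes of these 15. The 15 were Vip, Penk and Crh in Calb2 interneuron-like nuclei, Sst in Grin3a-Elfn1 and Pvalb interneuron-like nuclei, Tac1 in the latter, Npy and Cck in Lamp5 interneuron-like nuclei, Cck in granule-like and CA3-like nuclei, and 5 pairs in further clusters or the whole inhibitory-like class. In Lamp5 and Pvalb interneuron-like nuclei young mouse 3 had under 20 nuclei and was left out, so each comparison there held 1 young mouse. In its 19 Lamp5 interneuron-like nuclei that mouse held 27.3 CPM of Npy, below old mouse 2 fed ad libitum (49.0). Its Cck, at 54.6 CPM, lay above that of the same old mouse (44.5).

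**Figure D4:**
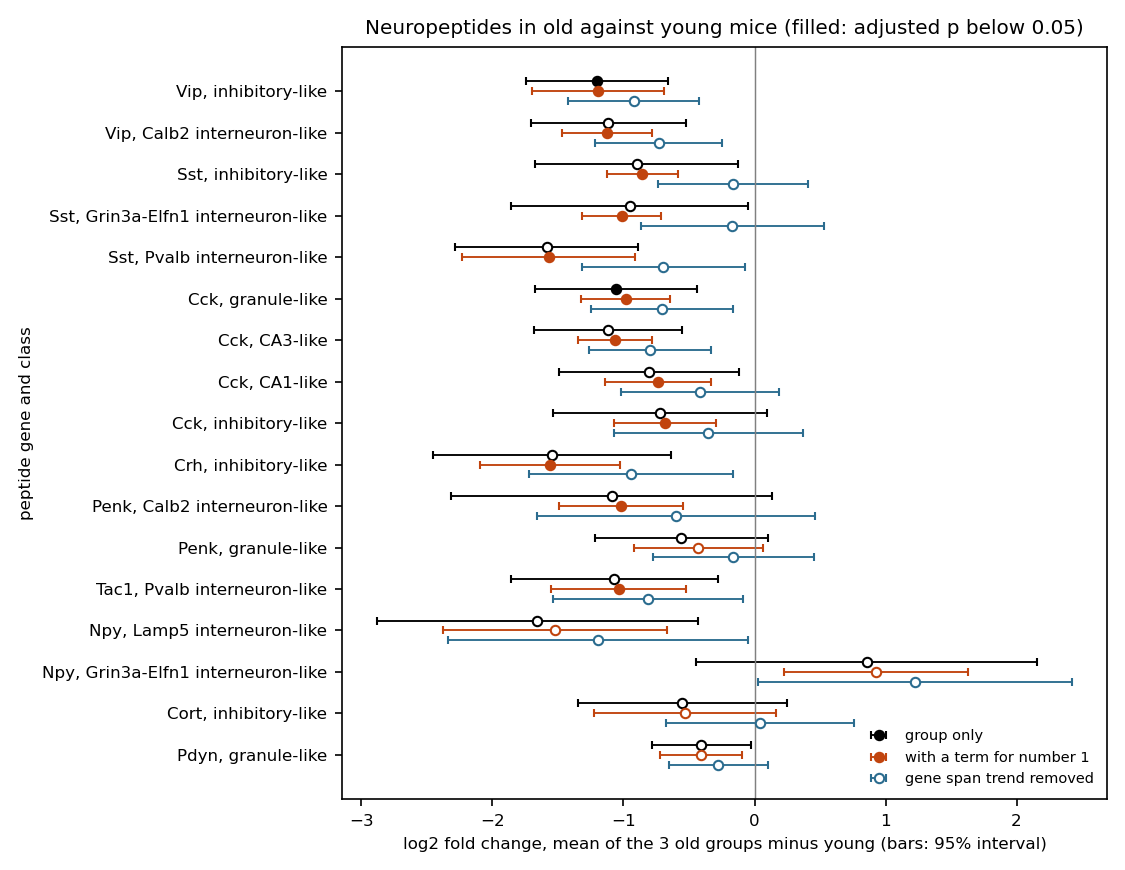
Log2 fold change of the mean of the 3 old groups minus the young group (horizontal axis) for 17 pairs of a peptide gene and a class, with bars of the 95% interval; filled points passed an adjusted p of 0.05. Most points lie below 0 in the fit with group only and with a term for number 1, and move toward 0 when the gene span trend is removed; Npy in Grin3a-Elfn1 interneuron-like nuclei lies above 0.

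Whether an age difference of a member differed between classes was tested between inhibitory-like nuclei and granule-like, CA1-like, CA3-like and subicular-like nuclei, and no difference of a member passed. The Vip fold of inhibitory-like nuclei differed from that of granule-like nuclei by -0.42 ± 0.52 (adjusted p = 0.871), and the Cck fold of granule-like nuclei from that of inhibitory-like nuclei by -0.29 ± 0.20 (adjusted p = 0.697). The Cck fold of inhibitory-like nuclei minus that of CA3-like nuclei was 0.45 ± 0.15 (adjusted p = 0.551). The shares of the 5 interneuron classes among inhibitory-like nuclei did not pass an exact permutation test between the groups (1201200 assignments, adjusted p = 0.430 to 0.826). Calb2 interneuron-like nuclei, for example, made up 18.4% ± 0.633 in young mice (n = 3) and 19.6% ± 4.61 in old mice fed ad libitum (n = 3). The unnamed subclusters were not in that test. Subcluster 8, for example, held 34 nuclei of young mice and 68 of old mice fed ad libitum. It held 65 nuclei under acute and 105 under long-term restriction.

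Dietary restriction changed no member past the threshold. Long-term restriction against old mice fed ad libitum gave 0 calls of 58 (1 at an unadjusted p under 0.05, DESeq2 0, and 0.000496% of all gene and class pairs called), with 40 pairs negative. Acute restriction gave 0 calls (2 at an unadjusted p under 0.05, DESeq2 0, and 0.00198% of all pairs called), with 32 negative, and the direct comparison of long-term with acute restriction gave 0 calls, 0 at an unadjusted p under 0.05 and 0 by DESeq2 (0% of all pairs called). Both restriction comparisons share the old mice fed ad libitum. Vip in Calb2 interneuron-like nuclei stood at -0.26 ± 0.37 under long-term and -0.28 ± 0.40 under acute restriction, and Sst in Grin3a-Elfn1 interneuron-like nuclei at -0.42 ± 0.55 and 0.11 ± 0.65. Cck in granule-like nuclei stood at -0.34 ± 0.39 and -0.31 ± 0.42. The 95% interval of the Vip fold under long-term restriction ran from -0.99 to 0.48, and that of Cck from -1.11 to 0.43. The folds of all old against young in these classes were -1.06 for Cck and -1.12 for Vip. They average in the restricted mice and have their own error. Whether an interval holds them therefore does not settle if restriction changed a member as much as age.

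Pdyn, whose peptides signal through the kappa opioid receptor, did not pass in either restriction comparison. In granule-like nuclei it measured 5.79, 3.53 and 4.34 CPM in old mice fed ad libitum, 3.39, 3.36 and 2.35 under acute and 3.16, 2.44, 2.44 and 2.39 under long-term restriction. Every old mouse fed ad libitum was above all 7 restricted mice, as held for 1 of 58 pairs, against 1.48% of all gene and class pairs and 1.98% of granule-like genes, so the count was at the background share and is no result about the member. The reverse held for 0 of 58 pairs and 1.42% of all pairs. The young mice, at 5.03, 5.70 and 4.06, lay with the old mice fed ad libitum. The fold was -0.77 ± 0.23 under long-term restriction (unadjusted p = 0.00564, adjusted p = 0.999) and -0.57 ± 0.25 under acute restriction (unadjusted p = 0.0383, adjusted p = 0.858), and neither passed. It was -0.74 with a term for number 1 (adjusted p = 0.302), and -0.77 with the gene span trend removed (0.758) under long-term restriction. With the median UMIs per nucleus as a covariate it was -0.62 under long-term and -0.36 under acute restriction. Pdyn stood at 0.0767, 0.0263 and 0.0376 UMIs per granule-like nucleus in the old mice fed ad libitum and at 0.0141 to 0.0245 in the restricted mice. With age alone it stood at 0.04 ± 0.25 (adjusted p = 0.922). By cluster, pooled Pdyn was lower under both restrictions than in old mice fed ad libitum in granule-like clusters 0, 1, 3, 7 and 13. The clusters hold nuclei of the same libraries, so they repeat the difference above and add no support. In cluster 7 it was 5.68 CPM fed ad libitum (18 UMIs), 3.32 under acute and 2.36 under long-term restriction. In cluster 13 it was 3.05 CPM fed ad libitum (10 UMIs), 1.81 under acute and 2.33 under long-term restriction. Young mice, at 1.74 CPM, were the lowest there.

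Genes that receive, process or accompany the peptides were taken from 3 lists: 21 receptors of the members, 18 genes of peptide processing and dense core vesicles, and 25 other neuropeptide genes. Across the 19 classes these gave 531 tests a contrast. With age among mice fed ad libitum 8 were called (0.298% of all gene and class pairs were), with all old against young 13 (1.85% of all pairs), and under restriction 0 in each comparison. For all old against young the count was near the share of all pairs. In granule-like nuclei 15 receptors, 18 processing genes and 8 other peptide genes were tested (3.44% of all genes called with age, 14.2% for all old). Processing genes were called higher: 5 of 18 with age and 6 for all old. With age these were Pcsk1 (0.82), Pcsk2 (0.41), Cpe (0.50), Ptprn2 (0.60) and Cadps (0.44), with adjusted p from 0.0167 to 0.0478. For all old these were Pcsk1 (0.87 ± 0.16, adjusted p = 0.00949) and Pcsk2 (0.38 ± 0.08), the convertases that cut precursors, Cpe (0.53 ± 0.09, adjusted p = 0.00739), which trims their ends, Pam (0.43 ± 0.11), which amidates them, and the vesicle genes Ptprn2 (0.50 ± 0.08) and Cadps (0.45 ± 0.09). The list's median was 0.11, against -0.07 over all genes of the class.

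Of the 15 receptors tested in granule-like nuclei 2 were called for all old against young, no larger a share than the 14.2% of all genes there, so these are no result about receptors as a group. Sstr2, which binds somatostatin and cortistatin, fell by 0.65 (± 0.14, adjusted p = 0.0141) and Crhr1, which binds Crh, rose by 0.63 (± 0.19, adjusted p = 0.0477) in granule-like nuclei for all old against young. Among mice fed ad libitum, Npy5r and Sstr2 were called lower with age (-0.77 ± 0.20, adjusted p = 0.0491, and -0.70 ± 0.18, adjusted p = 0.0485). Of the other peptide genes Nppc (C-type natriuretic peptide) and Nts (neurotensin) were called lower, at -1.36 ± 0.26 (adjusted p = 0.0103) and -1.63 ± 0.49 (adjusted p = 0.0429); Nppc was called with age among mice fed ad libitum as well (-1.40 ± 0.35, adjusted p = 0.0478). Outside granule-like nuclei Ptprn2 rose in inhibitory-like nuclei (0.41 ± 0.10, adjusted p = 0.0395), and in excitatory cluster 6 Pam rose (0.42 ± 0.11, adjusted p = 0.0470) and the granin Scg2 fell (-1.04 ± 0.24, adjusted p = 0.0346).

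The calls on these lists depended on single libraries. Without young mouse 2 none of the 13 calls for all old against young stood (adjusted p = 0.0538 to 0.237). For 8 of the 13, Pcsk1, Pcsk2, Cpe, Pam, Ptprn2, Cadps, Sstr2 and Nppc in granule-like nuclei, that was the only single library whose removal ended the call. Nts and Crhr1 in granule-like nuclei lost the call with 10 of the 13 libraries left out in turn, Ptprn2 in inhibitory-like nuclei with 7 of 13, and in excitatory cluster 6 Pam lost it with 10 of 12 and Scg2 with 7 of 12. None of the 8 calls with age among mice fed ad libitum stood without young mouse 2 (adjusted p = 0.0768 to 0.188), without old mouse 2 fed ad libitum (0.0959 to 0.218) or without old mouse 4 (0.0759 to 0.18), and 1 stood without old mouse 1, acute restriction mouse 2 or 3, or long-term restriction mouse 4. With any other library left out 2 to 8 stood, and with RLE size factors 3. With a term for the libraries numbered 1 all 13 and all 8 were called. With the replicate number as a block all 13 and 7 of the 8 were called, and Sstr2 with age was not (adjusted p = 0.0528). Without those libraries 9 of the 13 stood, and Nts (adjusted p = 0.0720), Ptprn2 in inhibitory-like nuclei (0.0690) and Pam (0.0974) and Scg2 (0.0591) in excitatory cluster 6 did not. Of the 8, Pcsk2 (adjusted p = 0.0768), Cadps (0.0650) and Nppc (0.0518) did not. DESeq2 gave no adjusted p for Nts for all old against young, nor for Nppc with age. With the gene span trend removed, Pcsk1 (0.77, adjusted p = 0.0248), Cpe (0.34, adjusted p = 0.0442) and Nppc (-0.97, adjusted p = 0.0497) in granule-like nuclei were still called for all old against young, and the other 10 were not. None of the 8 calls with age among mice fed ad libitum stood in that setting (Pcsk1 had the lowest adjusted p, 0.0967). With the median UMIs per nucleus as a covariate none of the 13 calls for all old (lowest adjusted p = 0.0814, Pcsk1) and none of the 8 calls with age (lowest adjusted p = 0.451, Pcsk1) stood.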

How the data were processed

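Unique molecular identifier counts (UMI counts) per gene and barcode were deposited as filtered matrices; per the submitters' processing notes they came from Cell Ranger 4.0.0 with mm10, and the handling of introns and strand is not given in the sources used here. Per the labels, nuclei were sorted by Hoechst. Barcodes were kept (105427) where 500 or more genes were seen and no more than 5% of UMIs were mitochondrial, and 7386 were removed as doublets by Scrublet (0.8% per 1000 barcodes). Nuclei were clustered with scanpy 1.11.5 (2000 variable genes, 30 components, 20 neighbours, Leiden resolution 1) with the 9 members left out. Counts were summed per mouse and class with at least 20 nuclei and fitted with edgeR 4.0.16 (quasi-likelihood, TMM, filterByExpr, Benjamini-Hochberg adjustment over all genes tested in a class), with all libraries of a fit (10 to 13 by class) sharing 1 spread. DESeq2 1.42.0, a term for number 1, a replicate block and other settings were alternatives. All 9 members were named, and from the lists each gene called in a neuronal class. For each member the 3 genes most like it were named, except 1 that is not reported here. In inhibitory-like nuclei 9 of 16 same-numbered pairs deviated together, with a correlation over 0.1. The median was 0.463 for pairs numbered 1, 0.063 for other same-numbered pairs and -0.081 for different numbers. The fit with group only did not pair the samples by number and leaves this shared deviation in. Tested on simulated data for the inhibitory-like ageing comparison (13039 genes), the fit recovered 78 of 200 genes changed 2-fold, with 5 false calls. The simulation gave all genes 1 spread, held no difference for the libraries numbered 1 and no span trend, and changed only well-counted genes. The figures describe that setting only. The members and lists were chosen with earlier results of these data known. Intervals cover counting error or the spread of these libraries only.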

Additional observations from a re-analysis of the deposited data

Results flagged for a closer look

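Pdyn in granule-like nuclei stood at 3.16 CPM in long-term restriction mouse 1, apart from the 2.39 to 2.44 CPM of the other 3 mice of that group. The gap to the nearest mouse was 0.933 of the group's range, above Dixon's critical value of 0.829 for 4 samples. This was 1 of 24 groups checked, and chance marks about 1 in 20 such groups.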

How the results depend on the processing

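The count of called pairs of a member and a class depended on the setting for age and not for restriction, where it was 0 of 58 in every setting run. For old against young mice fed ad libitum (0 called) it was 1 with DESeq2, 2 with no filter on low counts, 9 with the replicate block and 8 with a term for number 1. For all old against young (2 called) it was 6 with DESeq2, 11 with no filter, 20 with the replicate block, 22 with a term for number 1, 9 without the libraries numbered 1, 1 with the median UMIs per nucleus as a covariate and 0 with the gene span trend removed, which was chosen after seeing the data. Leaving out each library in turn gave 0 to 0 for the first and 0 to 3 for the second. The direction reversed for Npy in Grin3a-Elfn1 interneuron-like nuclei with the median UMIs covariate (-0.012), for Penk in granule-like nuclei and Tac1 in inhibitory-like nuclei without young mouse 1 (range over libraries left out, -0.90 to 0.11 and -0.90 to 0.10), and for Cort in inhibitory-like nuclei with the span trend removed (0.041); the cause was not tested. Of 1018 values under an alternative, 757 kept direction and side of the threshold, 215 lost and 36 gained the call. The replicate numbers were shared without pairing the samples by the rule used: in inhibitory-like nuclei the median correlation of deviations was 0.463 for pairs numbered 1 and 0.063 for other same-numbered pairs. Crh (258 UMIs) and Cort (836 UMIs) had the fewest UMIs of the members, so their values rest on few counts.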

Other observations

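2 small clusters that stayed unnamed differed in the peptides they carried. Cluster 32 (178 nuclei) held 82.7 pooled CPM of Tac1, with 92 UMIs and a UMI in 27.5% of nuclei, beside 60.3 CPM of Cck, 3.597 CPM of Npy and 0 UMIs of Penk. Cluster 34 (41 nuclei) held 0 UMIs of Tac1 and 31.2 CPM of Cck, from 3 UMIs.

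Npy in the Npy-rich subcluster 14 stood at 404 pooled CPM in young mice (31 nuclei), 544 in old mice fed ad libitum (35), 420 under acute restriction (72) and 208 under long-term restriction (53). Only 1 mouse reached 20 nuclei there, so no test was made. In subcluster 16, 1 nucleus with 52 Npy UMIs set the level of 156 CPM of old mice fed ad libitum.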
